A study of Mus musculus with 6 samples.

Results

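Myelocytes are described here as the cells whose mean deposited score of Fcnb and Cebpe was above 1 and whose mean score of Elane and Mpo was at or below 1.5. The score of a gene is its expression after centring and scaling within 1 site, so a score of 1 lies 1 standard deviation above the mean of that site. The rule took 1214 of 23008 cells, and these came from 5 of the 6 libraries. The members were thus chosen by measured values of these 4 genes, so their levels are given below as a description, and nothing is supported with them. The genes of the rule lie on GRCm38 at chr2:28076378-28084885 on the minus strand for Fcnb and chr14:54710360-54712174 on the minus strand for Cebpe, and at chr10:79886247-79888215 and chr11:87793581-87804413, both on the plus strand, for Elane and Mpo.

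CD45+ cells were sorted from pieces of liver and profiled by droplet single-cell RNA-seq. The Balb/c hosts had been injected in the heart with tumour cells of the mouse mammary line 4T07, either control cells (Ctrl) or cells with Tim3, an immune checkpoint receptor, knocked down (Tim3-KD). For both kinds of tumour cell, the day 3 libraries came from micrometastasis and from adjacent tissue, which is liver beside the metastases, and the day 12 libraries from macrometastasis. Every library was a pool of mice and the only library of its group, so no test between groups was made, no p-value is given, and all intervals below are 95% intervals that cover counting error only. Tumour cells carry the knockdown and do not pass a CD45+ sort, so no gene of the sorted cells checks the Ctrl and Tim3-KD labels.

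Neutrophils are made from dividing precursors in the bone marrow. Promyelocytes fill the azurophil granules with elastase (Elane), myeloperoxidase (Mpo), proteinase 3 (Prtn3) and cathepsin G (Ctsg). At the myelocyte stage the transcription factor C/EBP epsilon (Cebpe) comes into use, production turns to the proteins of the specific granules, such as lactoferrin (Ltf) and cathelicidin (Camp), and the last divisions take place. Metamyelocytes no longer divide and make gelatinase granules, and mature neutrophils carry the chemokine receptor Cxcr2 into blood and tissue. Ficolin B (Fcnb) is a secreted pattern recognition lectin, and Orm1 encodes the acute phase protein orosomucoid.

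The label was checked against markers that the rule did not use. Over the 189 genes found in at least 25% of members in every library, Orm1 had the highest median fold over the other cells of the same library (7.08-fold), followed among genes outside the rule by Ltf (6.63), the chitinase-like protein Chil3 (5.56), Serpinb1a (3.91), an inhibitor of neutrophil serine proteases, and Cd177 (3.89), a neutrophil surface protein. Annexin A1 (Anxa1, 3.61), the nucleosome-binding protein Hmgn2 (3.52), Syne1 (3.43), Pglyrp1 (3.35), Inhba (3.27), AA467197 (2.67), Ly6g (2.67) and the mitotic ubiquitin enzyme Ube2c (2.48) completed the 15 leading genes together with Fcnb (6.91) and Cebpe (5.60). Among all neutrophil lineage cells, the genes whose scores followed the mean of Fcnb and Cebpe most closely outside the rule were Serpinb1a (median Pearson r over 5 libraries 0.54), Rrm2 (0.48), Birc5 (0.47), Prtn3 (0.46) and Ccnb2 (0.45), which is a description across cells of shared libraries and depth. Haematopoietic progenitor markers were near 0: Kit was at 0.713 to 4.11 CPM (UMIs of a gene per 1000000 UMIs of these cells) and Cd34 at 0 to 0.514 CPM. In every library some members held only 1 or 2 UMIs of Fcnb and Cebpe together, and in macrometastasis these were over 50% of members, as described below.

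The 6 libraries held 542 to 5502 cells, with library medians of 6300 to 10248 UMIs per cell. Members were deeper than that, at medians of 33663 UMIs in adjacent tissue Ctrl, 25449 and 25965 in micrometastasis Ctrl and Tim3-KD, and, at day 12, 10382 in the Ctrl and 11091 in the Tim3-KD macrometastasis library. Pairs of libraries shared 0 to 11 cell barcodes, and 0 of these were barcodes of members in both. The 3 sites were scaled apart from each other, so the rule is a different cut in UMIs at each site, which limits every comparison of sites below.

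Promoter sequence is shown for Fcnb of the rule and for 3 specific granule genes, because C/EBP factors act on such genes and the members were chosen in part on Cebpe. The windows are the 250 bases before the RefSeq start on GRCm38.p6, written 5′ to 3′ on the strand of the gene, and capitals mark matches to the C/EBP-type motif TTNNGNAA on either strand. They lie at chr2:28084879-28085128 on the minus strand (Fcnb), chr9:111019042-111019291 on the plus strand (Ltf), chr3:106167565-106167814 on the minus strand (Chil3) and chr9:109849457-109849706 on the minus strand (Camp).
Fcnb: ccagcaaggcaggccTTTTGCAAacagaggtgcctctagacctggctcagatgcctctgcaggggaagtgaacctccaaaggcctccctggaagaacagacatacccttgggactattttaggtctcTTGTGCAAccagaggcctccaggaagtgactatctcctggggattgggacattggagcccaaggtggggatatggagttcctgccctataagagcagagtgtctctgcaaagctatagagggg
Ltf: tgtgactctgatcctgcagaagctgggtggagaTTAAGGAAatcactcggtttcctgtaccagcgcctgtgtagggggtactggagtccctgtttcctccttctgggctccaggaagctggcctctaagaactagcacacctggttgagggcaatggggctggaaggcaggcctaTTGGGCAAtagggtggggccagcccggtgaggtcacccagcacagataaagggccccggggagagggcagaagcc
Chil3: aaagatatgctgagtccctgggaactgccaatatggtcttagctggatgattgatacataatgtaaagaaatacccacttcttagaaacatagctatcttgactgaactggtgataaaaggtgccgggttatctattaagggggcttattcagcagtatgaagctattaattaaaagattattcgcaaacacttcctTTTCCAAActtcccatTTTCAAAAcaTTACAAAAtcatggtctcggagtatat
Camp: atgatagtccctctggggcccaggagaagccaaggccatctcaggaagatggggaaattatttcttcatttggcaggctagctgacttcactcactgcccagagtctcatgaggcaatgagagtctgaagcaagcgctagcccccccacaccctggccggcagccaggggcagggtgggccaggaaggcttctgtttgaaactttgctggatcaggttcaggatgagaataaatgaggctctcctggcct
The motif started 235 and 123 bases before the start in Fcnb, 217 and 75 bases before it in Ltf, and 53, 37 and 27 bases before it in Chil3. Of 20 genes, those of the specific granule list with Cebpe, 17 were matched in the promoter table and 10 of the 17 windows held the motif, against 12104 of all 32851 promoters (36.8%). A match is a description of the letters and not a binding site, and the window of Camp held none. Cebpe, Hp and Orm1 were not matched in the promoter table used here.

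Myelocytes made up different shares of the libraries. In adjacent tissue Ctrl they were 191 of 1803 cells (10.6%, interval 9.21 to 12.1). In micrometastasis Ctrl they were 210 of 5106 cells (4.11%, 3.58 to 4.69), and in its Tim3-KD counterpart 429 of 5142 (8.34%, 7.60 to 9.13). Macrometastasis Ctrl had 169 of 4913 (3.44%, 2.95 to 3.99) and macrometastasis Tim3-KD 215 of 5502 (3.91%, 3.41 to 4.45). Counting only members with 3 or more UMIs of Fcnb and Cebpe together, macrometastasis was at 1.53% (Ctrl) and 1.87% (Tim3-KD). With the rule on 1 scale over all sites it was at 1.42% and 1.56%. In adjacent tissue Tim3-KD there were 0 among 542 cells (interval 0 to 0.678%; 3 cells would be 0.554%), and all 18 neutrophil lineage cells of that library were mature neutrophils.

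The share was therefore higher in Tim3-KD than in Ctrl micrometastasis by 4.23 percentage points (interval 3.30 to 5.17), while in macrometastasis the difference was 0.468 points with an interval that included 0 (−0.260 to 1.19). The micrometastasis difference was larger in the stages on both sides: promyelocytes were 12.2% of Tim3-KD and 1.70% of Ctrl cells, and metamyelocytes 15.9% and 8.28%. Mature neutrophils were at 23.6% and 24.0%. Among neutrophil lineage cells alone, myelocytes were 13.9% in Tim3-KD and 10.8% in Ctrl micrometastasis, and 9.1% and 9.85% in macrometastasis. With single pooled libraries, a difference between mice, between dissected pieces or in blood content cannot be told apart from one between Ctrl and Tim3-KD.

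**Figure D1:**
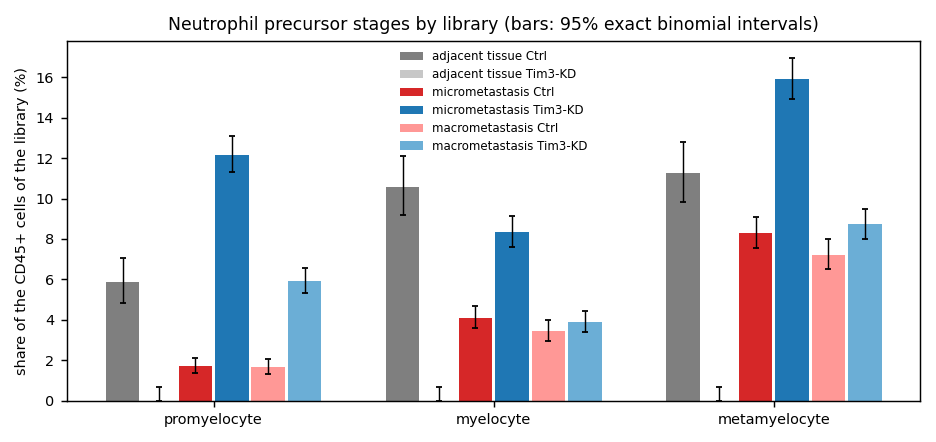
Share of cells (percent of each library, with 95% Clopper-Pearson intervals) that were promyelocytes, myelocytes and metamyelocytes. By the rule as used, the myelocyte share was highest in adjacent tissue Ctrl (10.6%), and in micrometastasis it stood at 8.34% in Tim3-KD against 4.11% in Ctrl. Without members holding markers of another lineage, adjacent tissue Ctrl was at 6.05% and micrometastasis Tim3-KD at 6.28%, so this ranking did not hold.

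The number of promyelocytes per myelocyte differed more between Tim3-KD and Ctrl than the myelocyte share itself. Promyelocytes numbered 1.46 per myelocyte (interval 1.29 to 1.65) in micrometastasis Tim3-KD against 0.414 (0.319 to 0.534) in Ctrl, and 1.52 (1.27 to 1.81) against 0.485 (0.368 to 0.635) in macrometastasis. Metamyelocytes numbered 1.91 per myelocyte in micrometastasis Tim3-KD and 2.01 in Ctrl, and 2.23 and 2.10 in macrometastasis. The ratio of the younger stage to myelocytes was thus higher with Tim3-KD tumours at both sites, and that of the older stage was close to even. In adjacent tissue Ctrl the 2 ratios were 0.555 and 1.06.

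To place the members in the series of neutrophil stages, they were compared within each library with promyelocytes (mean score of Elane and Mpo above 1.5; 1227 cells), metamyelocytes (mean score of Ltf, Ly6g and Cd177 above 1; 2280 cells) and mature neutrophils (mean score of Cxcr2, Csf3r, Mmp9 and Il1r2 above 0.5; 5397 cells), a cell that met several rules being put in the youngest stage. Since measured values made the stages, these contrasts are a description. A gene was counted when it was at least 2-fold higher, or 2-fold lower, in all 5 libraries. Of 612 genes compared with promyelocytes, 91 were higher in myelocytes (14.9%) and 61 lower (9.97%). Of 690 genes compared with metamyelocytes, 52 were higher (7.54%) and 61 lower (8.84%), and of 872 compared with mature neutrophils, 45 were higher (5.16%) and 292 lower (33.5%).

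Most azurophil granule genes were below the promyelocyte level. In the order adjacent tissue Ctrl, micrometastasis Ctrl, micrometastasis Tim3-KD, macrometastasis Ctrl and macrometastasis Tim3-KD, which holds for every run of 5 values below, Prtn3 was at 781, 3119, 3357, 1230 and 1241 CPM, whereas promyelocytes held 8358 to 14058 CPM and metamyelocytes 18.6 to 150. Of 8 azurophil genes compared with promyelocytes, 6 were lower in all 5 libraries (Prtn3, Ctsg, Ms4a3, Cst7, Nkg7 and Prss57), beside 9.97% of all genes. Of 6 compared with metamyelocytes, 4 were higher, beside 7.54%. Ctsg showed the steepest step from promyelocytes, with a median ratio of 0.00537, while Serpinb1a, which acts on the same proteases, was at a median ratio of 1.06 to promyelocytes and 2.36 to metamyelocytes. Elane, a gene of the rule, was at 152, 1182, 1052, 158 and 229 CPM and Mpo at 41.8, 327, 259, 49.2 and 57.6. Their order over sites depended on the cut at each site and is not read as a difference. For macrometastasis over micrometastasis Ctrl, the log2 ratio of Elane was −2.90, and 1.16 with the rule on 1 scale over all sites. That of Mpo was −2.73 and 0.33.

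Of 5 specific granule genes compared outside the rules, 2 were higher than in promyelocytes in all 5 libraries (Chil3 and Olfm4), beside 14.9% of all genes, and 1 higher than in metamyelocytes (Orm1), beside 7.54%. Chil3 was at 1110, 1536, 2103, 2291 and 2061 CPM and exceeded promyelocytes 5.23- to 12.9-fold and metamyelocytes 1.53- to 3.45-fold. Orm1 was at 214, 300, 476, 431 and 362 CPM, against 59.7 to 269 in promyelocytes, 60.9 to 152 in metamyelocytes and 19.6 to 83.3 in mature neutrophils, so its level was highest in the myelocytes of every library and above 2-fold over metamyelocytes and mature neutrophils in all 5. Ltf, which defines the next stage, was at 3063 to 8059 CPM against 73.6 to 334 in promyelocytes. With every cell thinned to 1500 UMIs, Ltf was found in 84.3%, 76.2%, 82.3%, 50.3% and 47.0% of myelocytes. In metamyelocytes it was found in fewer cells, at 66.5%, 68.8%, 65.9%, 38.0% and 36.9%. Camp, Ngp and Lcn2 were in the macrometastasis matrix alone. There Camp was at 17698 CPM in myelocytes of the Ctrl and 20101 in those of the Tim3-KD library, against 3985 and 2235 in promyelocytes, 3222 and 3661 in metamyelocytes and 27.3 and 21.4 in mature neutrophils. Ngp, the gene of neutrophilic granule protein, was at 27486 and 29027 CPM in myelocytes and 13242 and 12019 in metamyelocytes. Olfm4, the gene of olfactomedin 4, was present in 16.2% to 23.7% of members, at 229 to 716 CPM.

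**Figure D2:**
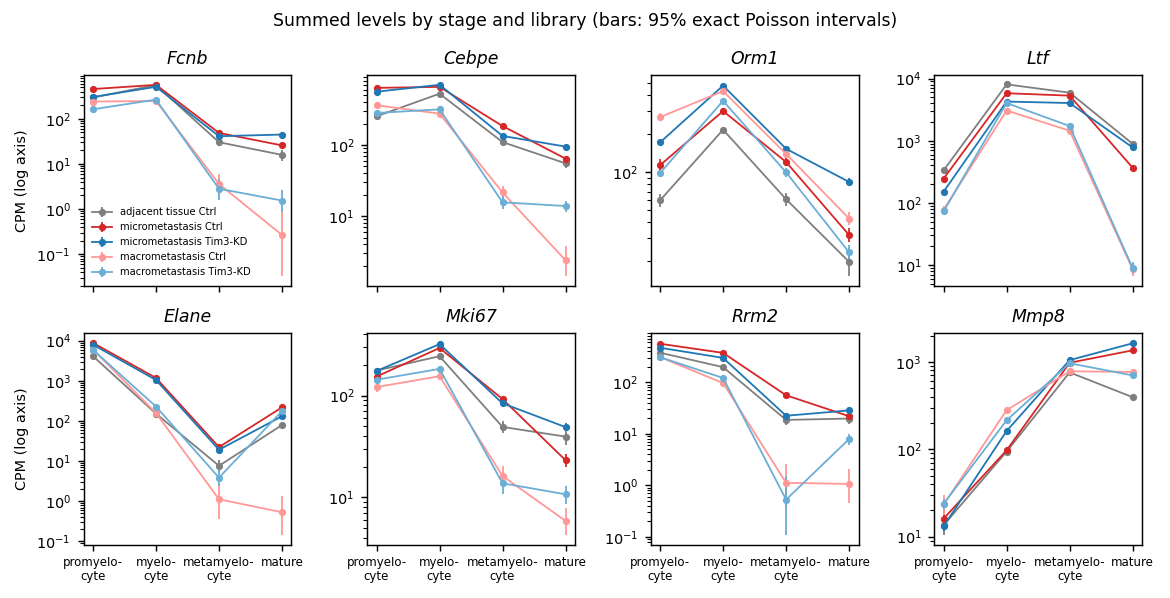
Levels (CPM, log axis) of 8 genes in promyelocytes, myelocytes, metamyelocytes and mature neutrophils, 1 line per library. Orm1 peaks in myelocytes (214 to 476 CPM), Mki67 is high in promyelocytes and myelocytes and low after them, and Mmp8 goes from at most 23.7 CPM in promyelocytes to 94.2 to 280 CPM in myelocytes.

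Some genes of later granules and of maturity were above the promyelocyte level. Mmp8, neutrophil collagenase, was at 94.2, 97.4, 162, 280 and 215 CPM, 6.01- to 12.3-fold above promyelocytes and at 0.0996 to 0.359 of the metamyelocyte level. The members were not alike in it, since in macrometastasis Mmp8 was highest in the group of members lowest in Ltf, as given below. Stefin genes, which encode inhibitors of cysteine proteases, gave the largest steps up from promyelocytes among genes outside the stage rules: Stfa3 with a median of 31.5-fold and Stfa2 with 26.7-fold. Of 10 genes of the mature neutrophil list, 9 were higher than in promyelocytes, beside 14.9% of all genes. Of the same 10, 6 were lower than in metamyelocytes (Ccl6, Stfa3, Prok2, Clec4e, Hdc and Acod1), beside 8.84%. Prok2, which encodes the secreted peptide prokineticin, was at 23.8 to 41.4 CPM in myelocytes, 0 to 5.10 in promyelocytes and 104 to 365 in metamyelocytes. Interferon-response genes were low: 14 of 21 were below mature neutrophils in all 5 libraries, and Isg15 was at 54.2 to 99.7 CPM in myelocytes against 286 to 1106 in mature neutrophils. Immediate-early and stress genes (12 of 17) and acute phase and inflammatory genes (11 of 13) were also lower than in mature neutrophils, against 33.5% of all genes compared.

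The word proliferating in the label was checked on cell cycle genes, which the rule did not use. Mki67, a nuclear protein of cycling cells, was at 244, 294, 321, 155 and 183 CPM. In metamyelocytes it was at 13.7 to 92.4 CPM and in mature neutrophils at 5.87 to 49.0. Promyelocytes held 121 to 176 CPM, less than the myelocytes of the same library in all 5 libraries, by 1.28- to 1.91-fold. This is an order of summed CPM and did not hold in every share of thinned cells given below. Of 14 mitosis genes compared, 13 were at least 2-fold above metamyelocytes in all 5 libraries, beside 7.54% of all genes. The same number were above mature neutrophils, beside 5.16%. Against promyelocytes, 0 of 14 passed 2-fold in either direction (median log2 ratio −0.14).

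Of 5 genes of DNA replication, 3 were 2-fold lower than in promyelocytes in all 5 libraries (Mcm3, Dut and Ccnd2), beside 9.97% of all genes. Rrm2, a subunit of ribonucleotide reductase, was at 199, 376, 300, 97.3 and 122 CPM in myelocytes and at 310 to 566 in promyelocytes. Dut, the enzyme that removes dUTP, was at 0.130 to 0.295 of the promyelocyte level and Mcm3, a subunit of the replicative helicase, at 0.197 to 0.431. Summed over 5 replication genes, myelocytes held 321, 696, 515, 210 and 271 CPM, promyelocytes 801 to 1310 and metamyelocytes 8.09 to 98.0. The summed mitosis genes were at 1977 to 3760 CPM in myelocytes and 2489 to 3664 in promyelocytes. The mitosis sum was thus below that of promyelocytes in 3 libraries and above it in 2.

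Because members were deeper than older cells, every cell was also thinned to 1500 UMIs before cells with an Mki67 UMI were counted, and no cell was left out by this. In thinned myelocytes the share was 23.6% (interval 17.7 to 30.2), 27.6% (21.7 to 34.2), 27.5% (23.3 to 32.0), 11.2% (6.91 to 17.0) and 14.9% (10.4 to 20.4). Unthinned, these shares were 62.3%, 68.1%, 75.3%, 29.6% and 34.4%. Thinned promyelocytes gave 11.0% to 26.4% and metamyelocytes 0.625% to 6.86%. As background, mature neutrophils (median depths 4790 to 5456 UMIs) gave 0.361% to 1.23%, and 2.20% to 3.79% unthinned.

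The Mki67 share of myelocytes lay above this background in all 5 libraries. Neither the adjacent tissue and micrometastasis Ctrl libraries nor Ctrl and Tim3-KD at either site had intervals that lay apart. The macrometastasis Ctrl share was the lowest, in a library where 55.6% of members held 1 or 2 UMIs of Fcnb and Cebpe and Mki67 at 6.95 CPM, against 206 CPM in its other members.

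**Figure D3:**
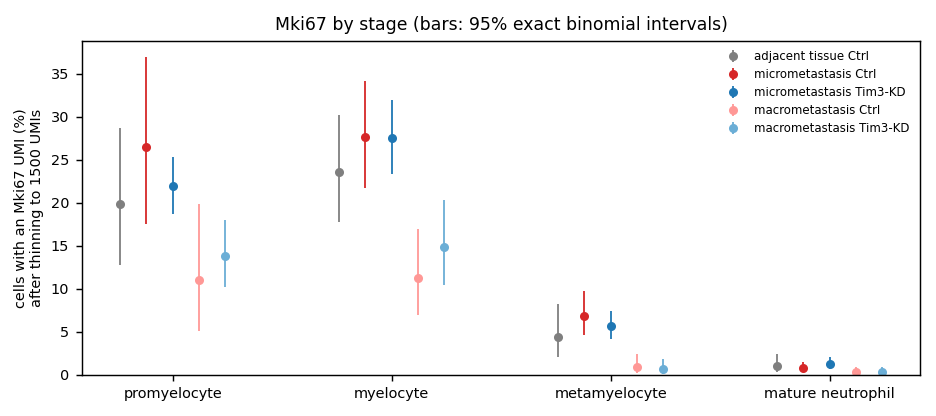
Percent of cells with an Mki67 UMI after thinning every cell to 1500 UMIs, by stage and library, with 95% Clopper-Pearson intervals. Myelocytes and promyelocytes stand at 11.0% to 27.6%, metamyelocytes at 0.625% to 6.86%, and mature neutrophils at or below 1.23%.

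Members varied among themselves in Ltf and azurophil transcripts. When the members of a library were split into equal groups of low, middle and high Ltf level, Elane in micrometastasis Ctrl was at 3027, 865 and 20.1 CPM and in micrometastasis Tim3-KD at 2636, 612 and 63.0. Prtn3 in the same groups was at 6327, 3137 and 363 CPM and at 6963, 2769 and 609. Mki67 followed no such slope, with 241, 312 and 316 CPM and 326, 342 and 290. Rrm2 was at 464, 453 and 201 CPM and at 402, 323 and 176. In adjacent tissue Ctrl, Elane was at 567, 16.7 and 7.91 CPM with Mki67 at 256, 224 and 258. Members rich in Ltf therefore held less Prtn3 and Rrm2 in these 3 libraries. Elane belongs to the rule and is given as a description. The low Ltf groups were shallow in adjacent tissue Ctrl (median 7234.5 UMIs against 38125.5 and 31292 in the middle and high groups) and micrometastasis Ctrl (8881 against 30655 and 23697), but not in micrometastasis Tim3-KD (26090 against 28732 and 23684), and the part of depth was not tested. The low Ltf groups were not of 1 kind, since in micrometastasis Ctrl Mmp8 was at 173, 76.0 and 60.8 CPM and the mature gene Cxcr2 at 149.9, 90.1 and 114 in the low, middle and high groups. In macrometastasis Ctrl, Mmp8 was at 679, 245 and 191 CPM and Cxcr2 at 289, 93.1 and 78.9, with Ltf and Elane at 0 UMIs in the low group, and in macrometastasis Tim3-KD Mmp8 was at 381, 254 and 145 CPM. Of macrometastasis members, 39.1% in Ctrl and 47.0% in Tim3-KD held 0 Ltf UMIs. Cells tied at 0 there thus fell in both the low and the middle group.

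Across single members, the Spearman correlation of Ltf with Elane was −0.29, −0.25 and −0.43 in adjacent tissue Ctrl and micrometastasis Ctrl and Tim3-KD (n = 191, 210 and 429 cells of 1 library each). In macrometastasis it was 0.22 in both libraries (n = 169 and 215), and there Mki67 in the low Ltf group stood at 12.6 (Ctrl) and 27.1 CPM (Tim3-KD) against 174 to 211 in the middle and high groups. The low Ltf groups of macrometastasis thus held less Mki67 than the others, at median depths of 6488 and 7803 UMIs against 9054.5 to 28489. These correlations share depth and library and are given as a description.

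The members also differed in how many UMIs of the rule genes they held. Of macrometastasis members, 94 in Ctrl (55.6%) and 112 in Tim3-KD (52.1%) passed the rule on 1 or 2 UMIs of Fcnb and Cebpe together, against 36 (18.8%) in adjacent tissue Ctrl and 37 (17.6%) and 40 (9.32%) in micrometastasis Ctrl and Tim3-KD. In macrometastasis these members had a median of 7509 and 7340 UMIs, with Ltf at 490 and 485 CPM, Orm1 at 54.2 and 59.7 and Mki67 at 6.95 and 8.04. Members with 3 or more UMIs of the pair, 75 and 103 cells, had medians of 25765 and 28537 UMIs, with Ltf at 3950 and 5057 CPM, Orm1 at 561 and 448 and Mki67 at 206 and 233. The members with few UMIs of the pair also held Ccr2, a chemokine receptor of monocytes, at 101 and 330 CPM and the macrophage gene C1qa at 164 and 401 CPM, against 0 and 55.9 and 20.6 and 4.63 in the others. The other libraries had such members too: those of micrometastasis Tim3-KD held Ltf at 29.2 CPM, Orm1 at 0, Mki67 at 14.6 and Ccr2 at 408, those of adjacent tissue Ctrl Ltf at 2193, Mki67 at 18.0 and C1qa at 270.3, and those of micrometastasis Ctrl Ltf at 2675, Mki67 at 90.7 and Ccr2 at 129.5. This split uses the genes of the rule and also separates deep from shallow cells, at medians of 25765 to 37043 UMIs with 3 or more UMIs of the pair and 4051 to 7509 with fewer, so it is a description and no check of the name, and the members are called myelocytes by the rule.

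**Figure D4:**
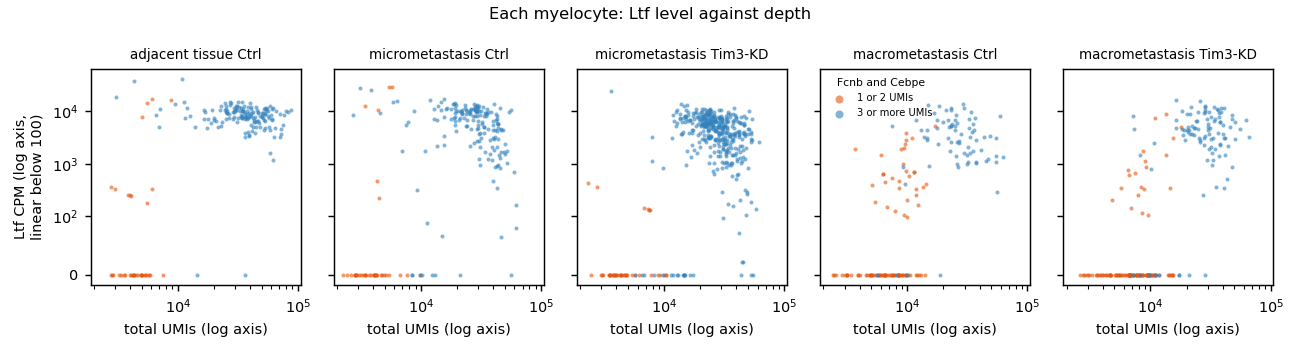
Each myelocyte of the 5 libraries by its total UMIs and its Ltf level (CPM), with members on 1 or 2 UMIs of Fcnb and Cebpe in orange and those on 3 or more in blue. In macrometastasis the orange members are 55.6% and 52.1% of all, with median UMIs of 7509 and 7340.

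Cells just inside the threshold on Fcnb and Cebpe held more of these genes than those just outside it, which the cut itself fixes, so this is a description. Of cells with a mean Fcnb and Cebpe score from 1 to 1.1, micrometastasis had 56, with Fcnb at 300.3 CPM and Mki67 at 270.1, and of those from 0.9 to 1 it had 75, with Fcnb at 224 and Mki67 at 196. Macrometastasis had 19 just inside, with Fcnb at 35.0 CPM and Mki67 at 28.0, and 20 just outside, with 22.2 and 7.41. Near the upper limit on Elane and Mpo, 14 micrometastasis cells just inside held Elane at 5072 CPM and 17 just outside held it at 5499.

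Markers of other lineages were counted in the members of every library. The summed monocyte markers were at 277, 270, 256, 467 and 1097 CPM, against 1473 to 2474 over all cells of these libraries. The summed Kupffer cell and macrophage markers were at 86.2, 81.1, 72.7, 345 and 515 CPM. NK cell markers were at 7.16, 33.4, 3.89, 13.9 and 0. T cell markers were at 53.5 to 154 CPM, of which Cd3d alone made 48.1 to 130. Macrometastasis members thus held the most monocyte and macrophage transcripts, and macrometastasis Tim3-KD more than Ctrl, and the part of these transcripts in the results below was not tested beyond the values given with them.

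Of members, 8.86% to 19.5% held 3 or more UMIs of defining monocyte, Kupffer cell, B cell or T cell markers when Cd3d was not counted, and 24.7% to 42.9% when it was. A doublet score over 0.15 was found in 8.38%, 3.81%, 10.3%, 0% and 2.79% of members. These cells were kept.

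To see how myelocytes differed between Tim3-KD and Ctrl micrometastasis, UMIs were summed over the members of each library and genes with at least 50 UMIs over both were compared. Of 1770 genes, 96 (5.42%) passed 2-fold, 19 higher in Tim3-KD (1.07%) and 77 lower (4.35%), with a median log2 ratio of −0.14 over all genes. The split was 31 and 60 with a trimmed mean of log ratios as the zero line, 55 and 51 with the rule on 1 scale over all sites and 24 and 228 by the mean over cells, so the excess of lower genes depended on these choices. Orm1 was higher in Tim3-KD, at 476 CPM against 300 (ratio 1.58, interval 1.5 to 1.68), as was Chil3, at 2103 against 1536 (1.37, 1.33 to 1.4). Ltf was lower, at 4266 against 5806 (0.735, 0.724 to 0.745). Specific granule genes were thus split, and 0 of 8 passed 2-fold. In the other stages of the same libraries Orm1 was also the higher in Tim3-KD, at 170 against 113 CPM in promyelocytes, 152 against 119 in metamyelocytes and 83.3 against 31.8 in mature neutrophils.

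Azurophil genes stood close together, with 0 of 11 past 2-fold, Prtn3 at a ratio of 1.08 and Ctsg at 0.975. Of 18 mitosis genes 0 passed 2-fold, and 14 were above 1, with Mki67 at 1.09 (interval 1.03 to 1.16), Top2a, the mitotic topoisomerase, at 1.19 and Ube2c at 1.48. All 6 replication genes were below 1. Dut was the 1 that passed, at 46.0 CPM against 125 (0.369, 0.328 to 0.415), although 41.0% and 41.4% of members held a UMI of it, and Rrm2 was at 0.799. Of 26 interferon-response genes 0 passed 2-fold.

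Several genes of the stress and inflammatory lists were lower in Tim3-KD micrometastasis myelocytes. Those named were chosen as past 2-fold after values were seen, here and in the comparisons that follow. Gadd45a, a growth arrest and DNA damage gene, was at 67.9 CPM against 206 (0.329, interval 0.3 to 0.362), and it was also the lower in Tim3-KD in promyelocytes (52.2 against 121), metamyelocytes (66.8 against 235) and mature neutrophils (89.2 against 267). Jun, a subunit of the transcription factor AP-1, was at 51.5 against 106 CPM (0.486, 0.431 to 0.547), and Socs3, a feedback inhibitor of cytokine signalling, at 6.54 against 18.0 (0.364). These were the 3 of 19 immediate-early and stress genes past 2-fold, all lower, where 4.35% of all genes were lower and the median log2 ratio of all genes was −0.14. Of 15 acute phase and inflammatory genes 4 were lower: the cytokine gene Il1b (279 against 569 CPM, 0.490), the chemokine genes Cxcl3 (0.263) and Ccl4 (0.351) and Ptgs2 (0.312), which encodes cyclooxygenase-2. Among members with 3 or more UMIs of the rule pair, Il1b stood at a log2 ratio of −0.67 against −1.03 over all members, and Gadd45a at −1.62 against −1.60. Some transcripts of other lineages were lower in Tim3-KD too. Summed B cell markers were at 8.39 against 32.3 CPM and NK cell markers at 3.89 against 33.4, with Ighm, Igkc and the T cell gene Trbc2 past 2-fold. Monocyte markers stood close, at 256 against 270 CPM. The part of other cells in the genes named here was not tested.

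Among single genes outside merged entries, B3gnt2, which encodes a glycosyltransferase, was far lower in Tim3-KD, at 0.795 CPM against 41.2 in Ctrl (ratio 0.0193, interval 0.00872 to 0.0374). It was found in 2.10% of Tim3-KD and 54.3% of Ctrl members. The gap was also found in the other stages of these libraries, at 0.599 against 40.8 CPM in promyelocytes, 0.289 against 22.4 in metamyelocytes and 0.549 against 14.6 in mature neutrophils, while macrometastasis Tim3-KD and Ctrl myelocytes held 32.4 and 41.7 CPM. Gzma, a granzyme of cytotoxic lymphocytes, stood at 1 UMI against 128. The highest ratios were those of Cpq (3.94), Ggct (3.17), Dpep2 (3.05), Zbtb20 (2.71) and Zhx1 (2.68), at 7.86 to 12.2 CPM in Tim3-KD and 2.90 to 3.86 in Ctrl.

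The deposited matrices list some near-identical genes as merged entries, and reads of such families can be split among entries differently in each library. Of the 96 genes past 2-fold, 14 were merged entries, and all 10 genes listed at 0 UMIs in 1 of the 2 libraries were among them. Summed over its entries, the Ly6c1 and Ly6c2 family was at 278 CPM in Tim3-KD and 159 in Ctrl (1.75), and the histone H2ac family at 20.1 and 965. These families are uncertain. Ly6c2 still enters the sums and counts of monocyte markers, and any single gene of these families named below is uncertain too.

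**Figure D5:**
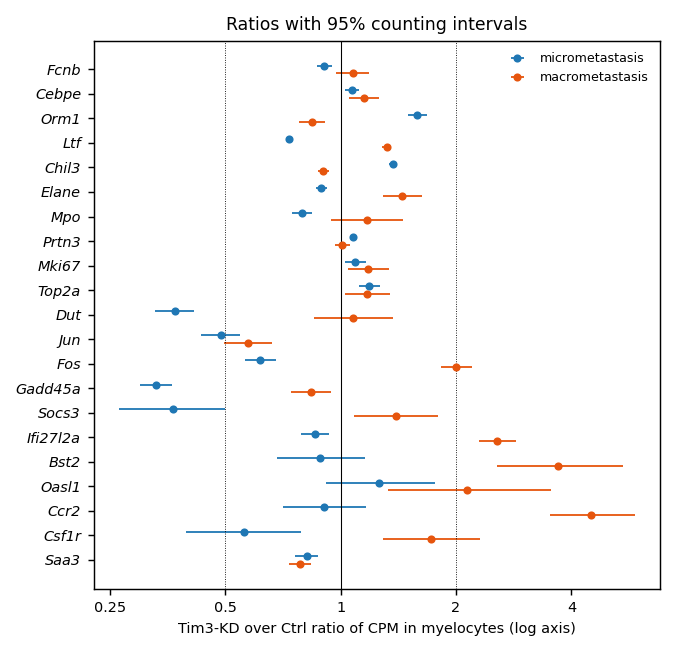
Ratio of Tim3-KD to Ctrl in myelocytes (log axis, 95% counting intervals) for 21 genes in micrometastasis and macrometastasis, with dotted lines at 0.5 and 2. Gadd45a (0.329), Socs3 (0.364) and Dut (0.369) stand lowest in micrometastasis, and Ccr2 (4.50) and Bst2 (3.69) highest in macrometastasis.

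In macrometastasis, Tim3-KD and Ctrl myelocytes were compared in the same way. Of 1262 genes, 115 (9.11%) passed 2-fold, 76 higher (6.02%) and 39 lower (3.09%), with a median log2 ratio of −0.05. Without members holding markers of another lineage the split was 27 higher and 29 lower, and with the rule on 1 scale over all sites 31 and 30. Specific granule genes were close, with 0 of 13 past 2-fold. Camp was at 20101 CPM in Tim3-KD against 17698 in Ctrl (1.14, interval 1.12 to 1.15), Ltf at 4034 against 3063 (1.32, 1.28 to 1.35) and Orm1 at 362 against 431 (0.839, 0.777 to 0.907). Orm1 and Ltf thus lay on opposite sides of 1 from their micrometastasis ratios, all within 2-fold.

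Azurophil genes were all at or above 1 in macrometastasis Tim3-KD, and 3 of 9 were at least 2-fold higher, beside 6.02% of all genes. Ctsg was at 37.0 CPM against 11.8 (3.15, interval 2.14 to 4.74), Ctsc, which encodes the protease that activates granule serine proteases, at 131 against 53.8 (2.44), and Nkg7 at 35.7 against 16.0 (2.23). The Ctsg difference depended on the limit of the rule, since with the mean of Elane and Mpo at or below 1 its log2 ratio was −0.0013. Elane was at 1.45 and Prtn3 at 1.01. Of 27 mitosis genes 0 passed, with Mki67 at 1.18 (1.05 to 1.33) and Top2a at 1.17, and of 5 replication genes 0 passed, with Rrm2 at 1.26.

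Interferon-response genes were mostly above 1 in macrometastasis Tim3-KD, where 6.02% of all genes were 2-fold higher and 3.09% lower. Of 19 compared, 8 were at least 2-fold higher in Tim3-KD (Irf7, Oasl1, Ifi44, Ifi44l, Ifi27l2a, Gbp2, Slfn5 and Bst2) and 1, the chemokine gene Cxcl10, was lower (0.388), with 18 of 19 above 1 and a median log2 ratio of 0.93, beside −0.05 over all genes. Ifi27l2a was at 377 CPM against 147 (2.56, interval 2.29 to 2.86), Irf7, a transcription factor of the interferon response, at 60.1 against 26.7 (2.25, 1.73 to 2.96), and Isg15, a ubiquitin-like modifier, at 99.7 against 55.9 (1.78, 1.48 to 2.16). Bst2, which encodes the antiviral membrane protein tetherin, was at 46.0 against 12.5 CPM (3.69) and Ifi44 at 26.5 against 7.48 (3.54).

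These genes were followed beside the transcripts of other lineages. Monocyte markers were higher in the same library, with 7 of 11 past 2-fold beside 6.02% of all genes, among them Ccr2 at 117 against 26.0 CPM (4.50) and Ms4a4c at 84.3 against 17.5 (4.83). Among members with 3 or more UMIs of Fcnb and Cebpe, 6 of 11 interferon genes compared were higher and 1 lower, beside 60 higher and 27 lower of all 865 genes. Without members that held markers of another lineage, Cd3d not counted, 6 of 14 were higher and 1 lower, beside 30 and 29 of all 1026. The log2 ratio of Ifi27l2a was 1.35 over all members, 2.33 and 1.16 in these selections. In the other stages of the same 2 libraries, Ifi27l2a was at 72.4 against 21.7 CPM in promyelocytes, 350.4 against 123 in metamyelocytes and 808 against 322 in mature neutrophils, and Irf7 at 75.7 against 33.0 in metamyelocytes and 142 against 58.4 in mature neutrophils. Bst2 was at 9.68 against 10.3 CPM in metamyelocytes and Ifi44 at 0.704 against 2.47.

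Of 14 immediate-early and stress genes, Fos, the other subunit of AP-1, was higher (444 against 222 CPM, 2.00, but 0.51 on the log2 scale without members holding markers of another lineage) and the heat shock gene Hspa1a lower (18.8 against 50.2, 0.373), beside 6.02% of all genes higher and 3.09% lower, and Jun was at 0.573. Of 15 acute phase and inflammatory genes 1 was lower, Il1rn, the interleukin-1 receptor antagonist, at 0.428. These counts are near the shares of all genes and are no result about either list. Saa3, an acute phase gene, was at 492 against 629 CPM (0.781). The extreme single genes outside merged entries were Pf4 (90 UMIs against 1), Folr2 (4.94) and Ms4a4c (4.83) at the high end and the chemokine gene Ccl5 (12 against 109 UMIs, 0.0794), Hmga1 (0.0901) and H2ac6 (0.147) at the low end. Hmga1 and H2ac6 have merged entries beside their own and are uncertain; summed over both its entries Hmga1 was at 1.01. Of the 115 genes past 2-fold, 16 were merged entries, and the 9 genes listed at 0 UMIs in 1 of the libraries were among these.

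The adjacent tissue and micrometastasis Ctrl libraries were both taken at day 3, so their comparison sets liver beside metastases against micrometastasis at 1 time. The micrometastasis Ctrl library also enters the comparisons with micrometastasis Tim3-KD and with macrometastasis Ctrl, so these share its counts. Of 1285 genes, 151 (11.8%) passed 2-fold, 136 higher in micrometastasis (10.6%) and 15 lower (1.17%), with a median log2 ratio of 0.29. With a trimmed mean of log ratios as the zero line the split was 77 and 36. Of 10 azurophil genes 8 were higher, among them Elane and Mpo, on which the members were chosen, Ctsg (267 against 8.94, ratio 29.8), Prtn3 (4.00) and Ms4a3 (3.19). With the rule applied on 1 scale over all sites, 0 of 9 azurophil genes passed 2-fold and the log2 ratio of Elane was 0.46 in place of 2.96, so this count depended on the cut at each site and is not read as a difference of the sites.

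The acute phase gene Saa3 was at 256 CPM in micrometastasis Ctrl against 1.79 in adjacent tissue Ctrl (143-fold, interval 79.6 to 287). It was found in 24.3% and 2.62% of members. Under the alternatives its log2 ratio lay at 5.58 with 1 scale over all sites and 5.19 in members with 3 or more UMIs of the pair, against 7.10. Mature neutrophils of these libraries, which held 2553 and 365 CPM of Saa3, and metamyelocytes, with 361 and 10.2 CPM, differed in the same direction. Other genes higher in micrometastasis were Jun (106 against 43.6 CPM, 2.43), Gadd45a (206 against 94.2, 2.19), Socs3 (2.40), Il1b (2.36), the stefin genes Stfa2 (2.98) and Stfa2l1 (2.94), and the replication genes Dut (3.43) and Lig1 (2.49). Jun, Gadd45a, Socs3, Il1b and Dut were also the genes named above as lower in Tim3-KD than in Ctrl micrometastasis, and both comparisons rest on the same micrometastasis Ctrl library. Transcripts of other lineages differed too: 7 of 10 monocyte markers were higher in micrometastasis, beside 10.6% of all genes (Ccr2, F13a1, Fn1, Ms4a6c, Ms4a4c, Irf8 and Ctss), and 1, Ly6c2, was lower. With the rule on 1 scale over all sites, Ms4a4c turned over, at a log2 ratio of −0.30. The summed monocyte markers, of which Ly6c2 was the most abundant, were at 277 CPM in the adjacent tissue library and at 269.5 CPM in that of micrometastasis Ctrl. Ly6c2 has merged entries beside its own, so its ratio and these sums are uncertain. Among the most extreme single genes were Gzma, at 128 UMIs against 1, and the chemokine gene Ccl24, at 134 against 2. The part of other cells in the genes named here was not tested.

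Several genes described above were level between adjacent tissue and micrometastasis: Mki67 was at a ratio of 1.20, Mmp8 at 1.03 and Ube2c at 1.00, while Orm1 was at 1.4, Chil3 at 1.38 and Ltf at 0.720. Of 14 mitosis genes and 8 specific granule genes 0 passed 2-fold. The lower end also held transcripts of other lineages, with the B cell genes Cd79a (0.187) and Igkc (0.177) and the macrophage gene C1qa (0.218). Cd274, which encodes PD-L1, was at 0.310.

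Macrometastasis and micrometastasis Ctrl myelocytes differ in site, in day (12 and 3) and in the cut that the rule makes, and these cannot be told apart. Of 881 genes, 276 (31.3%) passed 2-fold, 231 higher in macrometastasis (26.2%) and 45 lower (5.11%). The median log2 ratio of all genes was 0.51, and with a trimmed mean of log ratios as the zero line the split was 108 higher and 100 lower. Azurophil genes (9 of 10, Elane and Mpo of the rule among them) and replication genes (4 of 4) were lower, with Prtn3 at 0.394, Dut at 0.340 and Rrm2 at 0.259, and Kupffer cell and macrophage genes higher (6 of 7), with C1qa at 33.0. With the rule on 1 scale over all sites, 140 genes passed, 0 azurophil and 0 replication genes were 2-fold lower, the ratios of Elane, Mpo, Prtn3, Ctsg, Prss57, Dut, Mcm3, Mmp8 and Mmp9 turned over, and Rrm2 and Mki67 moved towards 1. The genes that kept both their direction and a 2-fold difference among members with 3 or more UMIs of the pair included Saa3, at 629 CPM against 256 over all members (2.46, interval 2.29 to 2.65) and a log2 ratio of 2.07 in that selection, although on 1 scale over all sites it was 0.05. Orm1 was the higher in macrometastasis at 1.43, with log2 ratios of 0.86 and 1.08 in the same selections and 0.02 to 1.08 over all alternatives.

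Some of the listed regulators of granulocyte differentiation could be compared. Of 7 compared with promyelocytes 1 was lower in all 5 libraries, beside 9.97% of all genes: Myb, a transcription factor of progenitors, at 4.62 to 12.6 CPM. Of 4 compared with metamyelocytes, 0 differed in this way. Between Tim3-KD and Ctrl, 1 of 11 passed 2-fold in micrometastasis, Irf8, a monocyte regulator (2.83 against 6.95 CPM, 0.406), and 0 of 8 in macrometastasis. These shares are near those over all genes (5.42% and 9.11%) and say nothing particular of regulators. Between sites, Irf8 and Cdkn1a of 11 were higher in micrometastasis than in adjacent tissue Ctrl, beside 10.6% of all genes. Of 9 compared between macrometastasis and micrometastasis Ctrl, Irf8 and Klf4 were higher, beside 26.2% of all genes, and Cebpe, a gene of the rule, lower, beside 5.11%. Irf8 and Klf4 are also on the list of monocyte markers. Cdkn1a, which encodes the cycle inhibitor p21, was at 60.3 and 61.8 CPM in micrometastasis Ctrl and Tim3-KD and at 80.2 and 120 in macrometastasis, with 27.5 in adjacent tissue Ctrl. Of the genes of marrow retention and egress, Cxcr4, the receptor that holds precursors in marrow, was at 34.0 and 28.6 CPM in micrometastasis Ctrl and Tim3-KD myelocytes and 64.5 and 69.9 in macrometastasis, below the 53.5 to 210 CPM of mature neutrophils of the same libraries, and 0 of 6 and 0 of 5 genes passed 2-fold between Tim3-KD and Ctrl.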

How the data were processed

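Each library was a droplet single-cell RNA-seq library (10x Genomics) of a pool of mice. Per the submitters' processing notes, reads were trimmed with Trim Galore 0.4.3 and aligned with STAR 2.7.7a to GRCm38. The study's methods state that doublets found with scrublet were removed. The values the authors deposited are scores. Their scaling is not given in the sources used here. From the values themselves, they are logarithms of UMIs per 10000 in each cell, with 1 covariate per cell regressed out, brought to mean 0 and SD 1 per gene over both libraries of a site and capped at 10. The matrices hold 1642 genes at all 3 sites.

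Tests for counts had been planned, but with scaled scores and 1 library per group no test was run. The scores were turned back into UMIs, and 99.9997%, 99.9999% and 99.9973% of values (adjacent tissue, micrometastasis, macrometastasis) came out whole within 0.05. Capped values (0.144%, 0.160% and 0.153%) were counted at their lower limit. UMIs were summed over members. Genes with at least 50 UMIs over both libraries were compared, with 0.5 UMI added to log2 ratios, and a ratio of at least 2 or at most 0.5 was counted as past 2-fold. CPM have exact Poisson intervals, shares Clopper-Pearson, differences of shares Newcombe and ratios conditional binomial intervals, all at 95%. Stages with under 50 cells were not compared.

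The members, markers and gene lists were chosen with earlier results of these data known. Genes were named when they were genes or markers of the rule, among the 5 list members of most UMIs, among the 15 leading genes, among the 5 most correlated with the mean of Fcnb and Cebpe, or among the 6 most extreme at either end of a comparison (without mitochondrial, ribosomal protein, haemoglobin, variable receptor and unnamed genes and Xist). List genes past 2-fold were named also, after their values were seen. The leading genes were ranked among genes found in at least 25% of members of every library, with 10 CPM added. Doublets were scored again with 2 simulated doublets per cell, 30 components and an assumed rate of 10%, and none was removed. Promoters are RefSeq GRCm38.p6, and gene coordinates GENCODE M21. The scripts were tested on simulated data. Python 3.11.15, numpy 2.4.6, scipy 1.17.1, pandas 2.3.3, scikit-learn 1.9.0 and matplotlib 3.10.9 were used. One marker gene of another cell type is not reported here.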

Additional observations from a re-analysis of the deposited data

Results flagged for a closer look

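For 5 named genes the ratio of Tim3-KD to Ctrl in myelocytes was at least 1.5-fold in one direction in micrometastasis and at least 1.5-fold in the opposite direction in macrometastasis. Each ratio compares 1 library with 1 library, and the difference between the sites was not tested. Fos, a subunit of AP-1, was at 0.616 in micrometastasis and 2.00 in macrometastasis. Csf1r, the receptor of a macrophage growth factor, was at 0.557 and 1.72, and Irf8, a monocyte regulator, at 0.406 and 1.71. Ptgs2, which encodes cyclooxygenase-2, was at 0.312 and 1.52. The transcription factor gene Zbtb20 was at 2.71 and 0.512. In macrometastasis without members holding markers of another lineage the log2 ratio of Fos was 0.51, and with Cd3d not counted among those markers it was 0.58 for Fos, 0.34 for Csf1r and 0.49 for Ptgs2, each under the 1.5-fold limit. Csf1r and Irf8 are also monocyte markers, and macrometastasis members held 467 CPM of summed monocyte markers in the Ctrl library and 1097 in the other, and their part in these ratios was not tested.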

How the results depend on the processing

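With 1 library per group the values below have no test, and no library can be left out. No paired analysis was possible because each group had 1 library and no result came from a test. The alternatives without members holding markers of another lineage (also with Cd3d not counted) and with 3 or more UMIs of the pair were chosen after seeing the data.

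In the order adjacent tissue Ctrl, micrometastasis Ctrl and Tim3-KD, and macrometastasis Ctrl and Tim3-KD, the myelocyte share was 13.6%, 6.99%, 12.1%, 4.44% and 5.11% with the mean of Fcnb and Cebpe above 0.5, and 7.76%, 2.60%, 5.95%, 2.48% and 2.76% with it above 1.5. It was 19.4%, 10.8%, 13.9%, 9.85% and 9.1% of neutrophil lineage cells, 6.05%, 3.04%, 6.28%, 1.99% and 2.29% without members holding markers of another lineage, and 8.60%, 3.39%, 7.57%, 1.53% and 1.87% with 3 or more UMIs of the pair. Macrometastasis was at 1.42% and 1.56% with the rule on 1 scale over all sites and at 2.91% and 3.14% when Cd3d was not counted. Micrometastasis Tim3-KD was at 7.57% and 9.37% with Elane and Mpo at or below 1 and 2. The Tim3-KD minus Ctrl difference in micrometastasis was 3.10 points among lineage cells and 3.25 without members of other lineage markers, and in macrometastasis −0.756 points among lineage cells.

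The number of genes past 2-fold between Tim3-KD and Ctrl micrometastasis was 165 with the pair above 0.5, 252 by the mean over cells, and 191 and 34 with a minimum of 20 and 200 UMIs. In macrometastasis it was 70 with the pair above 1.5, 61 on 1 scale, 56 without members of other lineage markers, 59 with Cd3d not counted, and 211 and 50 with a minimum of 20 and 200 UMIs. It was 278 and 49 at these minimums between micrometastasis and adjacent tissue, and 452 and 113 between macrometastasis and micrometastasis, where it was 140 on 1 scale and 159 with 3 or more UMIs of the pair. With a trimmed mean of log ratios as the zero line, the split into higher and lower was 31 and 60, 84 and 35, 77 and 36, and 108 and 100 in these 4 comparisons. On 1 scale it was 55 and 51 in micrometastasis and 31 and 30 in macrometastasis, and without members of other lineage markers 27 and 29 in macrometastasis.

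The Mki67 share was 62.3%, 68.1%, 75.3%, 29.6% and 34.4% without thinning. Thinned to 3000 UMIs, it was 36.4%, 40.8%, 45.2% and, in macrometastasis Tim3-KD, 20.9%.

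Of the named genes past 2-fold, 0, 2, 1 and 15 log2 ratios turned over in the 4 comparisons. Changes of direction in named genes under 2-fold were not counted here. Ctsg in macrometastasis Tim3-KD over Ctrl was at −0.0013 with Elane and Mpo at or below 1 and −0.026 on 1 scale. Ms4a4c in micrometastasis over adjacent tissue was at −0.30 on 1 scale. In macrometastasis over micrometastasis on 1 scale, Ccl6 was at −0.45, Ctsg at 0.85, Dut at 0.12, Elane at 1.16, Fcnb at 0.11, Igkc at −0.80, Mcm3 at 0.038, Mmp8 at −0.62, Mmp9 at −0.54, Mpo at 0.33, Nfkbiz at −0.012, Prss57 at 0.33, Prtn3 at 1.05 and Trem1 at −0.00064, and Ccl6 at −0.040 with 3 or more UMIs of the pair. The cause was not tested. Depth limits genes under 50 UMIs, and values capped at deposit are lower limits.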

Other observations

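Myelocytes of the 2 micrometastasis libraries also differed in collagenase transcripts, with Mmp8 at 162 CPM in Tim3-KD and 97.4 in Ctrl (ratio 1.66, interval 1.51 to 1.84). Mmp9, gelatinase B, which also defines mature neutrophils here, was at 87.3 and 124 CPM. Serpinb1a, the protease inhibitor, was at 2341 and 1860 CPM, and in macrometastasis at 1181 and 897. Olfm4, which is found in a part of neutrophils, was at 364 CPM in micrometastasis Tim3-KD and 229 in Ctrl, and at 716 and 523 in macrometastasis, so it was the higher in Tim3-KD at both sites.

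Jun was lower in Tim3-KD than in Ctrl promyelocytes of micrometastasis too (111 against 179 CPM), and was at 51.3 against 67.1 CPM in metamyelocytes and 96.7 against 111 in mature neutrophils. Il1b in the same libraries was at 34.2 against 75.9 CPM in promyelocytes, 695 against 978 in metamyelocytes and 2473 against 6294 in mature neutrophils.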
